A study of Homo sapiens with 12 samples.

Results

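The genes of the unfolded protein response and of the amino acid stress response were followed in 3 lines of intrahepatic cholangiocarcinoma (ICC), a cancer of the bile ducts within the liver, after knockdown of the kinase LKB1. Members were the genes of the deposited expression table whose symbol was on a list of 47, and 44 of the 47 were found among the 18764 genes left after cleaning. SHMT2, MTHFD2 and ALDH1L2 were not analysed here. The 44 members fell into an ATF4 arm of 25 genes, which held the stress kinases and transcription factors with their targets, 4 enzymes of amino acid synthesis and 9 cytosolic tRNA synthetases, and an ER arm of 19 genes, which held 3 sensors and factors, 12 chaperones and folding enzymes, and 4 genes of ER-associated degradation. All 44 passed the filter on low values (2 or more libraries with a signal of 1 or above) and were tested.

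RNA sequencing was done on HuH-28, RBE and SSP-25 cells at 48 h after transfection with LKB1 siRNA or control siRNA, at 45 pmol of siRNA per well with a lipid reagent, to find the genes that depend on LKB1. There were 12 libraries in 6 groups, with 2 for each siRNA in each line. HuH-28 cells were kept in MEM and the RBE and SSP-25 cells in RPMI1640, both with fetal bovine serum and antibiotics, so that line and medium cannot be told apart in any comparison of HuH-28 with the other lines. Each line is an established line that stands for a single tumour, the study tells the libraries of a group apart as a first and a second test without saying whether these were separate cultures, and p-values therefore measure the spread between these libraries, which may be technical.

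When unfolded proteins build up in the endoplasmic reticulum (ER), the sensors ERN1 (IRE1), ATF6 and EIF2AK3 (PERK) start the unfolded protein response. ERN1 splices the XBP1 mRNA and ATF6 is cut to release a transcription factor, and both raise ER chaperones and degradation genes. EIF2AK3, and EIF2AK4 (GCN2) when amino acids run short, phosphorylate eIF2alpha, which slows translation in general but raises that of ATF4, and ATF4 then turns on genes for amino acid synthesis, amino acid transport and tRNA charging. The ER arm is known for its role in secretory cells, and the ATF4 arm for its role where amino acids are scarce.

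The siRNA lowered its target in all lines, with no overlap between LKB1 siRNA and control siRNA libraries. STK11, the gene of LKB1, had a signal of 223 and 206.5 with LKB1 siRNA, against 698 and 600.4 with control siRNA in HuH-28, which is -1.59 as a log2 fold change. RBE had 130.0 and 156 with LKB1 siRNA, against 485 and 429.8 with control siRNA (-1.68), and SSP-25 had 61.8 and 72.8 with LKB1 siRNA, against 464 and 459.5 with control siRNA (-2.77). Here and below, changes are log2 fold changes, LKB1 siRNA over control siRNA, with a standard error after ± and 2 libraries in each group. In such bulk libraries, fewer cells that express a gene and less RNA of it per cell cannot be told apart. The signal is the deposited value, in normalized reads per kilobase of transcript on a scale the authors do not state, and the libraries summed to between 9919000 and 11750000. Of the markers of bile duct epithelium, KRT19 and EPCAM were low in HuH-28 (mean signals of 12.4 and 0.724, against 10580 and 371 in RBE, with 1062 and 95.8 for SSP-25), and KRT7, KRT8, KRT18 and SOX9 were present in all 3 lines (215 to 14580). The 4 fibroblast genes summed to 18000 to 22200 per library for HuH-28, 45 to 74.1 for RBE and 6580 to 11400 for SSP-25. DCN and LUM were high in HuH-28 alone (2357 and 2133, and at most 22.9 in the other lines), COL1A1 was high in HuH-28 (15480) and SSP-25 (8945), and COL1A2 was low everywhere (2.84 in HuH-28, 2.49 for RBE and 20.1 for SSP-25). Of the hepatocyte genes, ALB was below 1 in all lines, with TTR at 13.7 and CYP3A4 at 19.3 in RBE, and of the blood genes, CD3E was 0 in all lines, with CD14 at 8.83 in HuH-28 and 18.6 in SSP-25. Whether this profile of HuH-28 plays a part in the values below was not tested.

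A minority of the promoters of each arm carried an element for which its pathway is known, a larger share than over all genes. Windows of 300 bases around the start sites (250 before and 50 after, RefSeq, build GRCh38.p14) were matched for 42 of the 44 members, 8 of them by a newer symbol. They were searched on both strands for TGATGNAA, part of the element bound by ATF4 with C/EBP partners, for CCAAT followed after 9 bases by CCACG, the ER stress response element, and for TGACGTGG, an element of XBP1 and ATF6, whose reverse complement holds the CCACG of the ER stress element. A gene counted once where any of its windows matched. The ATF4 element was found in 10 of 23 genes of the ATF4 arm (43.5%), 6 of them among 8 synthetases, and in 1 of 19 of the ER arm, against 4.46% of 27305 genes. The ER stress element was found in 7 of 19 genes of the ER arm (36.8%) and in 0 of 23 of the ATF4 arm, against 0.0916% of all genes. TGACGTGG was found in 0 of 19 genes of the ER arm and, among the members, only in CARS of the ATF4 arm, against 0.927% of all genes. A match is a description of the sequence and not a binding site. The stretches below show the elements of the genes whose values are given further on, 30 bases each on the strand of the gene with the matched letters in capitals (the reverse complement where the element lies on the other strand). The first 5 are ATF4 elements and the last 5 are ER stress elements.
ASNS, chr7:97872458-97872487, minus strand: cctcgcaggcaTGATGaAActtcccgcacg
ATF3, chr1:212565205-212565234, plus strand: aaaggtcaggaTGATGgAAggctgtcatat
GARS, chr7:30594834-30594863, plus strand: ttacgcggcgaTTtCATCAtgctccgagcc
AARS, chr16:70289675-70289704, minus strand: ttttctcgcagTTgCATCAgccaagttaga
IARS, chr9:92293692-92293721, minus strand: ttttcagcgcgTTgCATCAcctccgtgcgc
HSPA5, chr9:125241385-125241414, minus strand: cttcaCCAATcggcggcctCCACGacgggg
HSP90B1, first, chr12:103930211-103930240, plus strand: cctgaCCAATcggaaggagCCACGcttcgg
HSP90B1, second, chr12:103930316-103930345, plus strand: gggtgCGTGGtgcggcgcgATTGGtgggtt
XBP1, chr22:28800597-28800626, minus strand: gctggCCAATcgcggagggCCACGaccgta
PDIA6, chr2:10812847-10812876, minus strand: ccggaCCAATgagccgcagCCACGgcttgg

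After LKB1 siRNA the members went both ways. On the average over the lines more genes of the ER arm rose than fell. Its counts were nearly even in RBE (36.8% higher and 31.6% lower) and SSP-25 (36.8% and 26.3%), and in both lines each share was above that of all genes given below. More genes of the ATF4 arm fell than rose on the average, in RBE and in SSP-25. In HuH-28 more genes of the ER arm fell than rose. The ATF4 arm had few calls there (12% higher and 8% lower), below the shares of all genes (14.3% and 15.5%), and gave no direction. On the average over the 3 lines 16 members rose and 17 fell at an adjusted p under 0.05 (limma on log2(signal + 0.5), adjusted over 16120 genes), beside 27.3% of all genes higher and 25.1% lower. On this average 10 of 19 genes of the ER arm rose and 6 fell, and 6 of 25 genes of the ATF4 arm rose and 11 fell. Within the ATF4 arm the excess of falls lay in the 9 synthetases, of which 1 rose and 6 fell. Of its 12 factors and regulators 4 rose and 4 fell, and of its 4 amino acid enzymes 1 rose and 1 fell. For the ER arm 3 rose and 6 fell in HuH-28, 7 rose and 6 fell in RBE, and 7 rose and 5 fell in SSP-25. For the ATF4 arm 3 rose and 2 fell in HuH-28, 5 rose and 10 fell in RBE, and 3 rose and 12 fell in SSP-25. By line, 6 members rose and 8 fell in HuH-28 (all genes, 14.3% and 15.5%), 12 rose and 16 fell in RBE (22.1% and 18.5%), and 10 rose and 17 fell in SSP-25 (21.1% and 21.1%). The count in HuH-28 was near the background in both directions, and the counts lower in RBE and SSP-25 stood above it. In SSP-25 the count lower was not stable, with 10 lower without the first LKB1 siRNA library (all genes, 16.1%), 9 without the second (15.6%), 9 without the first control siRNA library (15.8%) and 11 after quantile normalization (20.9%). In HuH-28 the count higher was 2 without the second LKB1 siRNA library (all genes, 13.2%) or the first control siRNA library (11.7%), and after quantile normalization 5 were higher and 13 lower. With the library number as a block within line, which is treated below with the other settings, 13 rose and 14 fell in HuH-28 (all genes, 18.2% and 19.7%).

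TRIB3 and DNAJB11 rose in each of the 3 lines, and XBP1, DNAJC3 and SEL1L fell in each of them. These are 2 of 44 members higher and 3 lower, which is not above the shares of all genes (6.94% higher and 7.44% lower in all 3 lines). CEBPB, EIF2AK4, SARS and SDF2L1 passed in no line. ATF3, ATF5, PSAT1, PSPH and HERPUD1 passed in opposite directions in different lines. The siRNA effect itself differed between the lines for 25 of 44 members (limma F test), beside 28.2% of all genes, 16 of them in the ATF4 arm and 9 in the ER arm.

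**Figure D1:**
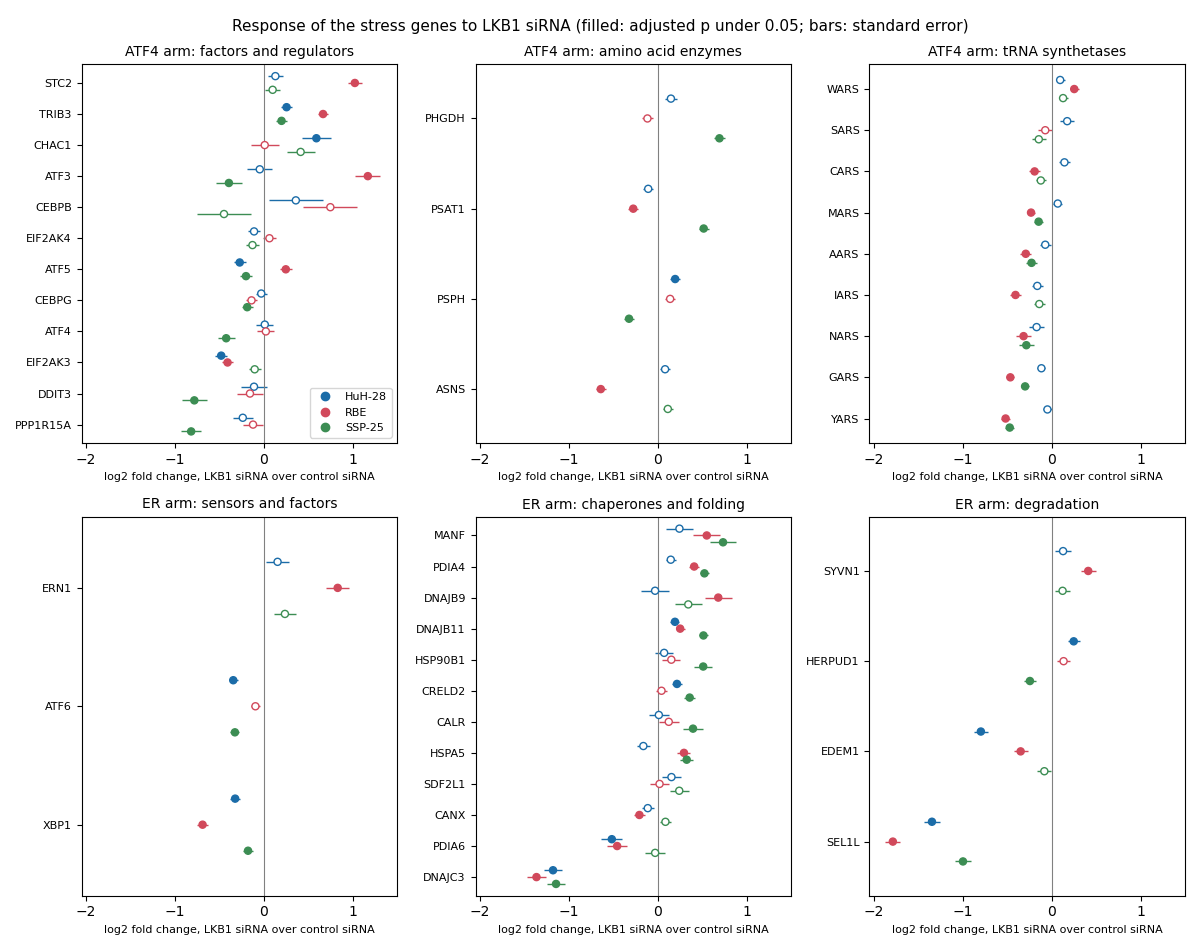
Log2 fold change of each of the 44 members, LKB1 siRNA over control siRNA (x axis), by role, with one point per line and its standard error; filled points passed at an adjusted p under 0.05. SEL1L and DNAJC3 lie furthest to the left in all 3 lines, between -0.998 and -1.79, and most synthetases lie left of 0 in RBE and SSP-25.

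Of the sensors and factors of the ER arm, XBP1 and ATF6 fell and ERN1 rose on the average over the lines. XBP1, the transcription factor made by ERN1 splicing, had a signal of 1147 and 1111 with LKB1 siRNA in RBE, against 1879.7 and 1766 with control siRNA, a log2 fold change of -0.69 ± 0.06 (adjusted p = 1.07e-05). In HuH-28 its libraries held 1589 and 1598 with LKB1 siRNA, against 2009.7 and 1979 with control siRNA, a change of -0.32 ± 0.06 (adjusted p = 0.0022). SSP-25 had 1541 and 1480.4 with LKB1 siRNA, against 1797 and 1628 with control siRNA, a change of -0.18 ± 0.06 (adjusted p = 0.0296). The groups did not overlap in any line, but the spliced form is not told apart from the unspliced one by a signal per gene. The fall in SSP-25 did not pass after quantile normalization (-0.10, adjusted p = 0.228) nor without its first LKB1 siRNA library (adjusted p = 0.0601), its second (0.16) or its first control siRNA library (0.228), and the effect differed between lines (adjusted p = 0.00397).

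ATF6, the sensor that is cut in the Golgi, held 293 and 288 with LKB1 siRNA, against 372 and 367 with control siRNA in HuH-28, which is a log2 fold change of -0.35 ± 0.05 (adjusted p = 0.000703). SSP-25 was similar in size, with 313 and 312.5 with LKB1 siRNA, against 381 and 404 with control siRNA (-0.33 ± 0.05, adjusted p = 0.000536). RBE held 499 and 490.4 with LKB1 siRNA, against 540.5 and 517 with control siRNA, a difference of -0.10 ± 0.05 (adjusted p = 0.159) that did not pass. The LKB1 siRNA libraries were below the control libraries in all 3 lines. ERN1, the kinase and nuclease of the ER membrane, went the other way and was scarce, with 65.3 and 62.9 with LKB1 siRNA, against 36.07 and 35.6 with control siRNA in RBE, a log2 fold change of 0.83 ± 0.13 (adjusted p = 0.000533). Its groups overlapped in HuH-28, with 79.3 and 65.3 with LKB1 siRNA, against 70.9 and 59.0 with control siRNA (0.15). Each of these LKB1 siRNA libraries was above the control siRNA library of its number, and the change did not pass with the library number as a block within line (adjusted p = 0.24). The groups were apart in SSP-25, with 69.9 and 70.4 with LKB1 siRNA, against 62.5 and 56.6 with control siRNA, where the change of 0.24 ± 0.13 (adjusted p = 0.165) did not pass. The effect on ERN1 differed between lines (adjusted p = 0.0317).

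Most ER chaperones and folding enzymes rose, 8 of 12 on the average over the lines with 2 lower. By line, 5 rose and 3 fell in RBE, 7 rose and 1 fell in SSP-25, and 2 rose and 2 fell in HuH-28. As shares of the 12, these are 41.7% and 25% in RBE, 58.3% and 8.33% in SSP-25 and 16.7% each way in HuH-28. In this fit, without the block, HuH-28 was thus near the shares of all genes given above. With the block, MANF, PDIA4 and SDF2L1 passed as higher in HuH-28 and HSPA5 as lower. HSPA5 (BiP), the main Hsp70 of the ER, held 11830.0 and 11948 with LKB1 siRNA, against 9792 and 9198 with control siRNA in SSP-25, a log2 fold change of 0.33 ± 0.07 (adjusted p = 0.00542). RBE had 9388 and 9620.3 with LKB1 siRNA, against 7948 and 7555 with control siRNA, a change of 0.29 ± 0.07 (adjusted p = 0.00938). In HuH-28 the libraries held 12632 and 13435 with LKB1 siRNA, against 13792 and 15416 with control siRNA, a difference of -0.16 ± 0.07 (adjusted p = 0.129). The LKB1 siRNA libraries were thus the higher ones in RBE and SSP-25 and the lower ones in HuH-28, and the effect differed between lines (adjusted p = 0.011). The difference in HuH-28 passed after quantile normalization (-0.35, adjusted p = 0.000882) and without the first control siRNA library (0.0427), and with the block (0.0323), and the rise in RBE did not pass without the second LKB1 siRNA library (adjusted p = 0.0652) or without the second control siRNA library (0.0715).

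HSP90B1 (GRP94), the Hsp90 of the ER, held 14535 and 15056 with LKB1 siRNA, against 10492 and 10275 with control siRNA in SSP-25, a log2 fold change of 0.51 ± 0.10 (adjusted p = 0.00269). RBE had 9484 and 9542 with LKB1 siRNA, against 8641 and 8481 with control siRNA, without overlap, at 0.15 ± 0.10 (adjusted p = 0.271). Its HuH-28 groups overlapped, with 11655 and 13845 with LKB1 siRNA, against 10979 and 13314 with control siRNA (0.07). Only the SSP-25 value passed, and a difference between lines was not shown (adjusted p = 0.0788), though it passed without the second LKB1 siRNA library (0.0289) or the first control siRNA library (0.0219) of HuH-28.

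DNAJB11 (ERdj3), a cochaperone of HSPA5, rose in all 3 lines. Its libraries held 2693 and 2628 with LKB1 siRNA, against 1940.2 and 1790.1 with control siRNA in SSP-25, a log2 fold change of 0.51 ± 0.05 (adjusted p = 3.21e-05). RBE had 1429 and 1394 with LKB1 siRNA, against 1175 and 1196 with control siRNA (0.25 ± 0.05, adjusted p = 0.00292). HuH-28 had 3517 and 3436 with LKB1 siRNA, against 3086 and 2996 with control siRNA (0.19 ± 0.05, adjusted p = 0.0168), and this value did not pass after quantile normalization (0.12, adjusted p = 0.195) or without the first LKB1 siRNA library (0.0612) or the second control siRNA library (0.0691) of HuH-28. All groups were apart, and the effect differed between lines (adjusted p = 0.0173), a call that was lost without the first or the second LKB1 siRNA library of SSP-25 (adjusted p = 0.0697 and 0.0502) or its second control siRNA library (0.0681).

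DNAJC3 (p58IPK), another cochaperone of the ER and an inhibitor of EIF2AK3, was the chaperone that fell most. HuH-28 held 480.0 and 420.2 with LKB1 siRNA, against 1141 and 907 with control siRNA, a log2 fold change of -1.18 ± 0.10 (adjusted p = 3.49e-05). RBE held 136 and 127 with LKB1 siRNA, against 339.9 and 338 with control siRNA (-1.36 ± 0.10, adjusted p = 6.08e-06), and SSP-25 held 171 and 173 with LKB1 siRNA, against 368 and 394 with control siRNA (-1.15 ± 0.10, adjusted p = 1.82e-05). The signal with LKB1 siRNA was thus between 0.388 and 0.452 times that with control siRNA, far from overlap, and a difference between lines was not shown (adjusted p = 0.438).

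The other chaperones are given by their log2 fold changes. MANF, a secreted ER stress protein, rose by 0.55 in RBE and 0.73 in SSP-25, and the disulfide isomerase PDIA4 by 0.41 and 0.52, with 0.24 and 0.15 in HuH-28, where neither passed. DNAJB9 (ERdj4) rose by 0.68 in RBE, the lectin chaperone CALR (calreticulin) by 0.40 in SSP-25, and CRELD2 by 0.36 in SSP-25 and 0.22 in HuH-28. PDIA6, a disulfide isomerase, fell in HuH-28 (-0.52) and RBE (-0.46) and stood at -0.03 in SSP-25, and CANX (calnexin) fell in RBE (-0.21). With 1 library of the line left out, CALR did not pass in SSP-25 without the first LKB1 siRNA library or either control siRNA library (adjusted p from 0.0594 to 0.103), and CANX did not pass in RBE without any one of the 4 (0.0621 to 0.172). Nor did MANF in RBE without the second LKB1 siRNA library or either control siRNA library (0.0547 to 0.107), PDIA6 in RBE without the first LKB1 siRNA library (0.064) or the second control siRNA library (0.0548), or CRELD2 in HuH-28 without the second LKB1 siRNA library (0.114) or the second control siRNA library (0.134). With the block, MANF (adjusted p = 0.0431), PDIA4 (0.0161) and SDF2L1 (0.0337) passed in HuH-28. SDF2L1 was between 0.02 and 0.24 and passed in no line without the block. The genes with an ER stress element did not move as a block, since HSPA5, HSP90B1, CALR and CRELD2 rose on the average over the lines, XBP1 and PDIA6 fell, and CANX (-0.08) did not pass. The rise of CALR on this average was lost in 10 of the 12 fits that left out a library, all but those without the first LKB1 siRNA or the second control siRNA library of HuH-28 (adjusted p from 0.06 to 0.107).

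Among the genes of ER-associated degradation, by which misfolded proteins leave the ER for the proteasome, SEL1L had the largest fall of all members on the average over the lines (-1.38 ± 0.05, adjusted p = 1.86e-08), and SYVN1, its partner, rose (0.22). SEL1L, the scaffold of the SYVN1 ubiquitin ligase, held 133 and 116 with LKB1 siRNA, against 432 and 429 with control siRNA in RBE, a log2 fold change of -1.79 ± 0.09 (adjusted p = 3.69e-07). HuH-28 held 181 and 197 with LKB1 siRNA, against 465 and 498 with control siRNA (-1.35 ± 0.09, adjusted p = 5.34e-06), and SSP-25 held 89.2 and 92.9 with LKB1 siRNA, against 173 and 192 with control siRNA (-0.998 ± 0.09, adjusted p = 1.31e-05). The levels with LKB1 siRNA were between 0.290 and 0.501 times those with control siRNA, and the size of the fall differed between lines (adjusted p = 0.00386). SYVN1 (HRD1), the ligase itself, rose in RBE (0.41) and had 0.12 in SSP-25 and 0.13 in HuH-28, where it passed with the block (adjusted p = 0.0439). EDEM1, which hands misfolded glycoproteins to this pathway, fell in HuH-28 (-0.80) and RBE (-0.35), with -0.08 in SSP-25. HERPUD1, another part of the ligase complex, rose in HuH-28 (0.25) and fell in SSP-25 (-0.24). Neither change of HERPUD1 passed without the second LKB1 siRNA library or the first control siRNA library of that line (adjusted p of 0.0969 and 0.136 in HuH-28, and of 0.114 and 0.0999 in SSP-25).

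**Figure D2:**
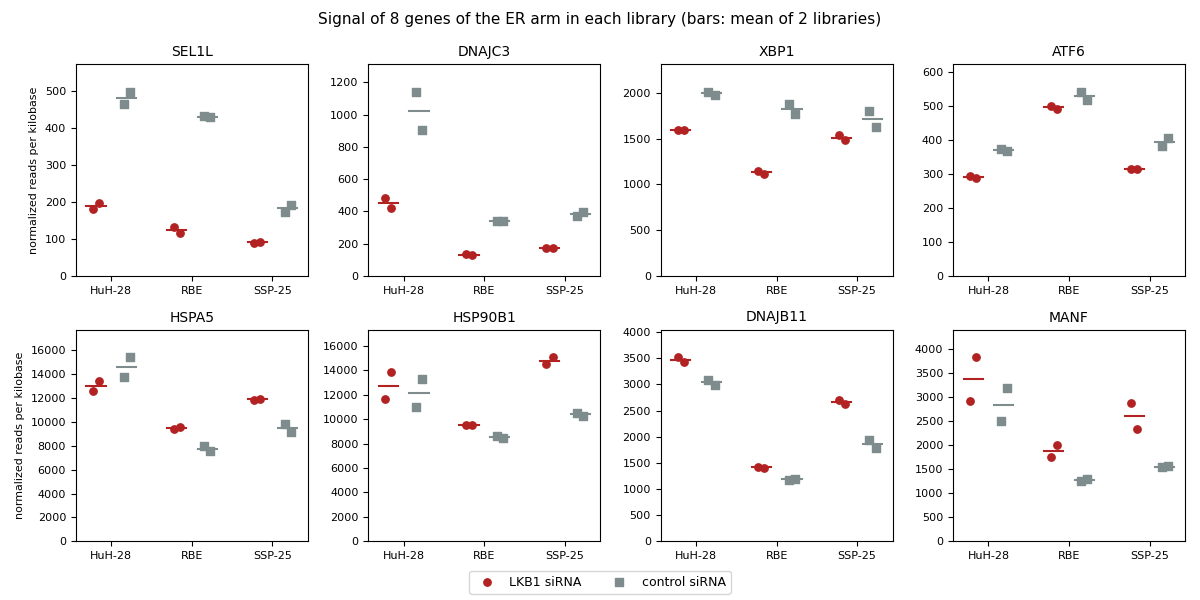
Signal in normalized reads per kilobase (y axis, from 0) of 8 genes of the ER arm in each of the 12 libraries, LKB1 siRNA left of control siRNA within each line; points are libraries and bars the mean of 2. SEL1L and DNAJC3 are low with LKB1 siRNA in every line, while DNAJB11 is high, and HSPA5 is lower in HuH-28 and higher in RBE and SSP-25.

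In the ATF4 arm the kinases and factors changed line by line. EIF2AK3 (PERK), the eIF2alpha kinase of the ER, held 189.7 and 174 with LKB1 siRNA, against 264 and 244 with control siRNA in HuH-28, which is a log2 fold change of -0.48 ± 0.07 (adjusted p = 0.000561). RBE held 97.4 and 99.1 with LKB1 siRNA, against 129 and 132 with control siRNA (-0.41 ± 0.07, adjusted p = 0.00085), and SSP-25 held 242 and 241 with LKB1 siRNA, against 264 and 256 with control siRNA (-0.10 ± 0.07, adjusted p = 0.247). It fell in HuH-28 and RBE, and the effect differed between lines (adjusted p = 0.0291). EIF2AK4 (GCN2), the kinase that senses uncharged tRNA, passed in no line. HuH-28 held 484 and 428 of it with LKB1 siRNA, against 514 and 469 with control siRNA, RBE held 826 and 838 with LKB1 siRNA, against 802 and 791 with control siRNA, and SSP-25 held 642 and 614 with LKB1 siRNA, against 706 and 668 with control siRNA. Its log2 fold changes were between -0.13 and 0.06, and its groups overlapped in HuH-28 alone, where it passed with the block (adjusted p = 0.0472).

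ATF4 itself, which is regulated mainly in its translation, passed in SSP-25 alone. SSP-25 held 4072 and 4273 with LKB1 siRNA, against 5775 and 5429 with control siRNA, a log2 fold change of -0.42 ± 0.10 (adjusted p = 0.0059). RBE held 5561 and 5722 with LKB1 siRNA, against 5555 and 5559 with control siRNA (0.02), and the HuH-28 libraries overlapped, with 3608 and 4353 with LKB1 siRNA, against 3621 and 4279.6 with control siRNA (0.01). The test of the difference between lines was at the threshold (adjusted p = 0.0498) and was lost in 12 of 23 alternatives, among them every fit without one of the libraries of RBE or SSP-25 (0.0874 to 0.168). DDIT3 (CHOP), the factor tied to cell death under lasting stress, also passed in SSP-25 alone, with 456 and 477 with LKB1 siRNA, against 835 and 772 with control siRNA in SSP-25, a log2 fold change of -0.78 ± 0.14 (adjusted p = 0.00167). RBE held 352 and 369 with LKB1 siRNA, against 389 and 416 with control siRNA (-0.16), and HuH-28 held 409 and 567 with LKB1 siRNA, against 463 and 585 with control siRNA (-0.11), where the groups overlapped. Its difference between lines was also at the threshold (adjusted p = 0.0496) and was lost in 14 of 23 alternatives, among them the fits without any one library of RBE or SSP-25 or without the first control siRNA library of HuH-28 (0.0622 to 0.163).

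PPP1R15A (GADD34), the phosphatase subunit that reverses eIF2alpha phosphorylation, fell in SSP-25 as well. Its signal was 1115 and 1072 with LKB1 siRNA, against 2025 and 1839 with control siRNA in SSP-25, a log2 fold change of -0.82 ± 0.11 (adjusted p = 0.000283). In RBE it was 392 and 432 with LKB1 siRNA, against 441 and 456 with control siRNA (-0.12), and in HuH-28 1797 and 2139 with LKB1 siRNA, against 2059.6 and 2595 with control siRNA (-0.24). The SSP-25 groups were far apart, those of RBE were apart by less, those of HuH-28 overlapped, and the effect differed between lines (adjusted p = 0.0189). That difference did not pass without either LKB1 siRNA library or the first control siRNA library of SSP-25 (0.0537 to 0.0814), and the HuH-28 value passed without its first control siRNA library (0.0249) and with the block (0.00521), each LKB1 siRNA library there being below the control siRNA library of its number.

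TRIB3, a pseudokinase that ATF4 and DDIT3 induce, rose in all 3 lines and most in RBE. RBE held 1019 and 1086 with LKB1 siRNA, against 669 and 657 with control siRNA, a log2 fold change of 0.67 ± 0.06 (adjusted p = 1.69e-05). HuH-28 held 448 and 466 with LKB1 siRNA, against 368 and 398 with control siRNA (0.25 ± 0.06, adjusted p = 0.00937), and SSP-25 held 536 and 505 with LKB1 siRNA, against 464 and 443 with control siRNA (0.20 ± 0.06, adjusted p = 0.0219). No groups overlapped and the effect differed between lines (adjusted p = 0.00549), but the smaller rises did not pass without the first control siRNA library of HuH-28 (adjusted p = 0.0596), or without the first LKB1 siRNA library (0.141) or the second control siRNA library (0.128) of SSP-25.

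ATF3, a stress factor downstream of ATF4 whose promoter element is shown above, went in opposite directions in RBE and SSP-25. RBE held 129 and 159.8 with LKB1 siRNA, against 60.4 and 67.0 with control siRNA, a log2 fold change of 1.17 ± 0.14 (adjusted p = 0.000126). SSP-25 held 159 and 156 with LKB1 siRNA, against 235 and 184 with control siRNA (-0.39 ± 0.14, adjusted p = 0.048), a fall that did not pass in 14 of 24 alternatives, among them the fits without either LKB1 siRNA library (0.129 and 0.159) or the first control siRNA library (0.33) of SSP-25, either LKB1 siRNA library of HuH-28 (0.057 and 0.0571) or either control siRNA library of RBE (0.06 and 0.0602), while in HuH-28 the 86.1 and 88.4 with LKB1 siRNA lay within the 82.4 and 98.6 with control siRNA (-0.05). The difference between lines passed (adjusted p = 0.00122). STC2, a secreted glycoprotein raised by ER stress, rose in RBE, where it was scarce, with 41.3 and 38.7 with LKB1 siRNA, against 21.0 and 17.9 with control siRNA, a log2 fold change of 1.02 ± 0.08 (adjusted p = 8.21e-06). In HuH-28 it held 3340.1 and 3537 with LKB1 siRNA, against 2994 and 3301 with control siRNA (0.13), and in SSP-25 2337 and 2194 with LKB1 siRNA, against 2144 and 2087 with control siRNA (0.10), neither of which passed, and the effect differed between lines (adjusted p = 0.000693).

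CEBPB, a C/EBP partner of the stress factors, passed in no line. HuH-28 held 3822 and 1987 of it with LKB1 siRNA, against 2889.7 and 1598 with control siRNA, RBE held 345 and 419 with LKB1 siRNA, against 232 and 221 with control siRNA, and SSP-25 held 599 and 507 with LKB1 siRNA, against 728 and 778 with control siRNA. The RBE and SSP-25 groups did not overlap, yet the log2 fold changes of 0.75 ± 0.30 (adjusted p = 0.0773) in RBE and -0.45 ± 0.30 (adjusted p = 0.273) in SSP-25 did not pass, and the RBE value passed without any one library of HuH-28 (0.0266 to 0.0387). In HuH-28 each LKB1 siRNA library was above the control siRNA library of its number, and the value of 0.36 passed with the block (0.0329). Of the remaining factors, CHAC1, which breaks down glutathione, rose in HuH-28 (0.59), the partner factor CEBPG fell in SSP-25 (-0.19), and ATF5 fell in HuH-28 (-0.27) and SSP-25 (-0.20) and rose in RBE (0.25). CHAC1 did not pass without the second LKB1 siRNA library or either control siRNA library of HuH-28 (adjusted p from 0.059 to 0.0975), nor CEBPG without any one library of SSP-25 (0.0768 to 0.144). ATF5 did not pass in HuH-28 without the first LKB1 siRNA library (0.0845) or the second control siRNA library (0.071), in RBE without either LKB1 siRNA library or the second control siRNA library (0.066 to 0.124), or in SSP-25 without either LKB1 siRNA library or the first control siRNA library of SSP-25 or either LKB1 siRNA library of RBE (0.059 to 0.256).

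All 4 enzymes of amino acid synthesis responded differently between the lines. ASNS, which makes asparagine and is a classic ATF4 target, held 1371 and 1423 with LKB1 siRNA, against 2127 and 2232 with control siRNA in RBE, a log2 fold change of -0.64 ± 0.06 (adjusted p = 1.49e-05). It held 509 and 488 with LKB1 siRNA, against 465 and 477 with control siRNA in HuH-28 (0.08), and 233 and 248 with LKB1 siRNA, against 229.6 and 215 with control siRNA in SSP-25 (0.11). The fall was found in RBE, the line with the highest ASNS, and the libraries of the other lines lay slightly above their controls without passing (difference between lines, adjusted p = 0.000307).

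The serine synthesis enzymes PHGDH and PSAT1, which act in sequence, rose in SSP-25. PSAT1 held 1340.4 and 1336 with LKB1 siRNA, against 901 and 972 with control siRNA in SSP-25, a log2 fold change of 0.52 ± 0.06 (adjusted p = 5.85e-05). In RBE it fell, with 2268 and 2129.5 with LKB1 siRNA, against 2577 and 2749 with control siRNA (-0.28 ± 0.06, adjusted p = 0.00298), and in HuH-28 it was low, with 198 and 193 with LKB1 siRNA, against 213 and 209 with control siRNA (-0.11). The SSP-25 libraries with LKB1 siRNA were the only ones above their controls, and the difference between lines passed (adjusted p = 0.000332). PHGDH held 660.2 and 672 with LKB1 siRNA, against 415 and 409 with control siRNA in SSP-25, a log2 fold change of 0.69 ± 0.06 (adjusted p = 1.96e-05). RBE held 1839 and 1853 with LKB1 siRNA, against 2040.3 and 1963 with control siRNA (-0.12), and HuH-28 held 101 and 104 with LKB1 siRNA, against 86.4 and 99.0 with control siRNA (0.15). Neither of these passed, although the HuH-28 value did without its second control siRNA library (0.0112), and the difference between lines passed (adjusted p = 0.000651). PSPH, the last enzyme of the same path, fell in SSP-25 (-0.32), against the direction of both, and rose in HuH-28 (0.20), where it did not pass without the second LKB1 siRNA library (0.0955) or the first control siRNA library (0.147).

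Most of the cytosolic tRNA synthetases, which charge tRNAs with their amino acids, fell in RBE and in SSP-25. Of the 9, 7 fell and 1 rose in RBE, 5 fell and 0 rose in SSP-25, and in HuH-28 0 passed in either direction (limma). Of all genes, 18.5% fell and 22.1% rose in RBE, 21.1% went each way in SSP-25, and 15.5% fell and 14.3% rose in HuH-28. At an unadjusted p under 0.05, 1 was higher and 6 lower in SSP-25 (all genes, 24.8% and 24.4%), and 1 was higher and 2 lower in HuH-28 (all genes, 19.2% and 20.4%). YARS, the tyrosyl enzyme, fell most. RBE held 2169 and 2216 with LKB1 siRNA, against 3160.2 and 3121 with control siRNA, a log2 fold change of -0.52 ± 0.05 (adjusted p = 3.09e-05). SSP-25 held 1605 and 1682 with LKB1 siRNA, against 2349.8 and 2211 with control siRNA (-0.47 ± 0.05, adjusted p = 5.7e-05). The HuH-28 libraries overlapped, with 2174 and 2263 with LKB1 siRNA, against 2252 and 2334 with control siRNA (-0.05), and the effect differed between lines (adjusted p = 0.0023).

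In RBE the glycyl enzyme GARS fell by 0.47, the isoleucyl enzyme IARS by 0.41, the asparaginyl enzyme NARS by 0.32, the alanyl enzyme AARS by 0.29, the methionyl enzyme MARS by 0.23 and the cysteinyl enzyme CARS by 0.19 on the log2 scale. These 6 are the synthetases with an ATF4 element in the searched window. Of those without a match, WARS (tryptophanyl) rose by 0.25 and SARS (seryl) stood at -0.07 and did not pass, and YARS was not matched to a window. The other genes of the ATF4 arm with the element did not move as a block in RBE. There ASNS fell (-0.64) and ATF3 rose (1.17), while CHAC1 (0.009) and CEBPG (-0.14) did not pass. Whether the element plays a part in these values was not tested. In SSP-25, GARS (-0.30), NARS (-0.29), AARS (-0.23) and MARS (-0.15) fell with YARS. In HuH-28 the 9 lay between -0.17 (NARS) and 0.17 (SARS), and CARS, IARS, NARS and SARS each passed there in 1 or 2 of the fits that left out a library (adjusted p from 0.0162 to 0.048). With the block, CARS and SARS were higher (0.0472 and 0.00925) and GARS, IARS and NARS lower (0.0297, 0.012 and 0.00493) in HuH-28. The smaller falls did not all hold with 1 library left out. CARS and NARS did not pass in RBE without any one of its 4 libraries (0.0579 to 0.131 for CARS and 0.0517 to 0.0715 for NARS), nor NARS in SSP-25 without any one of its 4 (0.0746 to 0.0948). AARS did not pass in SSP-25 without either LKB1 siRNA library or the first control siRNA library (0.0551 to 0.114), nor MARS without any of those 3 or any one library of RBE (0.0507 to 0.236).

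**Figure D3:**
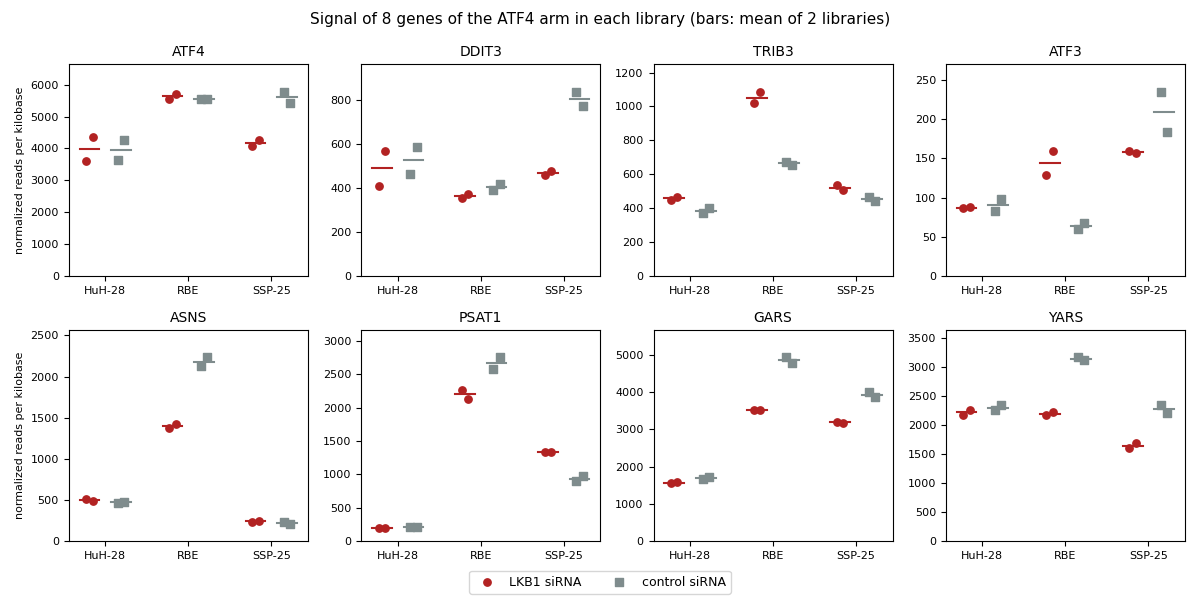
Signal in normalized reads per kilobase (y axis, from 0) of 8 genes of the ATF4 arm in each of the 12 libraries, LKB1 siRNA left of control siRNA within each line; points are libraries and bars the mean of 2. ATF4 and DDIT3 are lower with LKB1 siRNA in SSP-25, TRIB3 is higher in all 3 lines, ASNS is lower in RBE, and GARS and YARS are lower in RBE and SSP-25.

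The arms as wholes are described by medians, with no test, because the members were chosen with results of these data known. On the average over the lines the median log2 fold change was -0.08 in the ATF4 arm and 0.15 in the ER arm, beside 0.03 over all genes, so that the ATF4 arm lay 0.23 below the ER arm. The gap was -0.38 in SSP-25 (-0.15 in the ATF4 arm and 0.24 in the ER arm), -0.25 in RBE (-0.12 and 0.12) and -0.04 in HuH-28 (-0.03 and 0.01). Between libraries of a group, the level of the ATF4 arm minus that of the ER arm, as defined in the next paragraph, varied with a pooled SD of 0.04. That is a different measure from the gap of median fold changes and gives only a rough scale for it. The gap in HuH-28 changed sign when any of the 4 HuH-28 libraries was left out (0.02 to 0.07).

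The level of each arm in a library was also taken as the median over its genes of log2(signal + 0.5) after centring each gene over the 12 libraries. The ER arm stood at 0.14 and 0.13 with LKB1 siRNA, against -0.09 and -0.09 with control siRNA in SSP-25, at -0.34 and -0.24 with LKB1 siRNA, against -0.37 and -0.40 with control siRNA in RBE, and at 0.18 and 0.32 with LKB1 siRNA, against 0.33 and 0.47 with control siRNA in HuH-28, where this level was lower with LKB1 siRNA although the median fold change was near 0. The ATF4 arm stood at -0.22 and -0.15 with LKB1 siRNA, against -0.09 and -0.03 with control siRNA in SSP-25, at 0.16 and 0.27 with LKB1 siRNA, against 0.29 and 0.31 with control siRNA in RBE, and at -0.19 and -0.07 with LKB1 siRNA, against -0.06 and -0.00143 with control siRNA in HuH-28. The LKB1 siRNA libraries were the lower ones for the ATF4 arm in all 3 lines. In HuH-28 the median fold change of this arm was nevertheless near 0 (-0.03), with 12 of its 25 genes above 0.

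**Figure D4:**
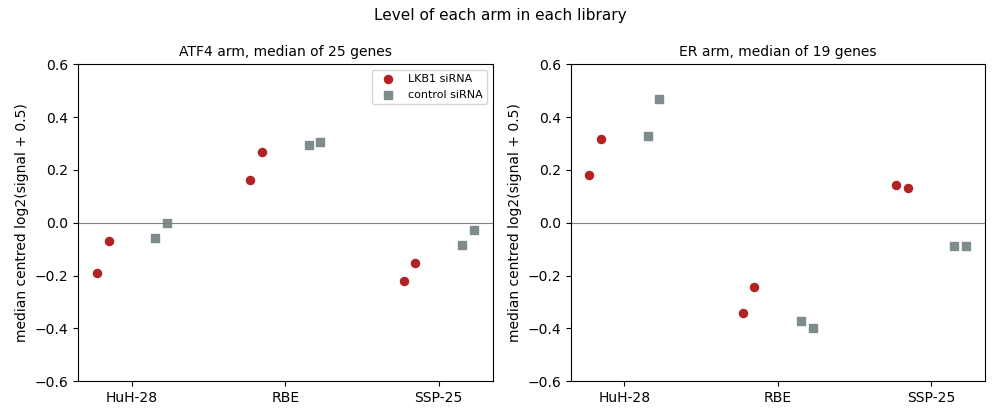
Median over the 25 genes of the ATF4 arm and the 19 genes of the ER arm of log2(signal + 0.5), centred per gene (y axis), in each of the 12 libraries, LKB1 siRNA left of control siRNA within each line. The ATF4 arm is highest in RBE and the ER arm in HuH-28, and the ER arm is higher with LKB1 siRNA in RBE and SSP-25 and lower in HuH-28.

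At baseline, with control siRNA, the lines differed in both arms. The highest mean lay in HuH-28 for most ER arm genes and in RBE for the amino acid enzymes and synthetases. HuH-28 had 22 members higher and 15 lower than RBE (all genes, 39.2% and 38.1%), 22 higher and 12 lower than SSP-25 (37.9% and 36.8%), and RBE had 18 higher and 18 lower than SSP-25 (35.9% and 37.2%). For the ER arm, 15 genes were higher and 1 lower in HuH-28 than in RBE, 12 higher and 2 lower in HuH-28 than in SSP-25, and 2 higher and 11 lower in RBE than in SSP-25. HuH-28 had the highest mean of the 3 lines for 16 of the 19 genes, among them 11 of the 12 chaperones. For the ATF4 arm RBE had the highest mean for 17 of 25 genes, with all 4 amino acid enzymes and all 9 synthetases among them, but the lowest mean for 7 of the 12 factors and regulators. Not all of these ranks passed against the next line. RBE did not for CARS, NARS, SARS, PSPH and CEBPG (limma, adjusted p from 0.0732 to 0.455). HuH-28 did not for XBP1, ERN1, HSP90B1, DNAJB9, SDF2L1 and SEL1L (0.059 to 0.931). The share of all genes highest in each line was not counted.

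The widest range over the lines belonged to STC2, with a signal of 2994 and 3301 in HuH-28, then 2144 and 2087 in SSP-25, then 21.0 and 17.9 in RBE with control siRNA. HuH-28 stood 7.30 on the log2 scale above RBE (adjusted p = 1.51e-12) and 0.57 above SSP-25 (9.62e-05), so that all neighbours in the order differed. PHGDH was ordered the other way, with 86.4 and 99.0 for HuH-28, 415 and 409 for SSP-25 and 2040.3 and 1963 for RBE, and HuH-28 minus RBE was -4.43 (adjusted p = 4.33e-12). PSAT1 had the same order, with 213 and 209 for HuH-28, 901 and 972 for SSP-25 and 2577 and 2749 for RBE, and HuH-28 minus RBE was -3.65 (5.93e-12). Each line differed from the next for both serine enzymes.

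ASNS was also highest in RBE, at 2127 and 2232, followed by HuH-28 at 465 and 477 and SSP-25 at 229.6 and 215, and RBE minus SSP-25 was 3.29 (adjusted p = 2.73e-11). CEBPB was highest in HuH-28, at 2889.7 and 1598 in libraries that differed widely, against 728 and 778 in SSP-25 and 232 and 221 in RBE, and all neighbours differed. The HuH-28 libraries held 2059.6 and 2595 of PPP1R15A and those of RBE 441 and 456, against 2025 and 1839 for SSP-25. For PPP1R15A, HuH-28 minus SSP-25 did not pass (adjusted p = 0.0582), though it did in some of the fits that left out 1 library. RBE minus SSP-25 was -2.10 on the log2 scale (5.85e-08). XBP1 had the narrowest range of all members, 0.22 on the log2 scale. Its neighbours in the order (HuH-28, RBE, SSP-25) did not pass against each other (adjusted p = 0.059 and 0.175). Each of these differences passed in 1 or more of the fits that left out 1 library. HuH-28 minus SSP-25 was 0.22 for XBP1 (adjusted p = 0.00509).

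**Figure D5:**
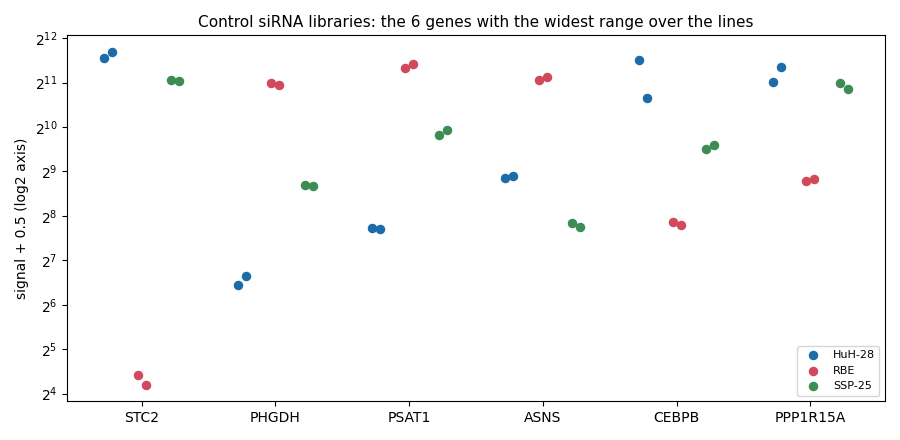
Signal + 0.5 with control siRNA (y axis, log2 axis) of the 6 members with the widest range over the lines, with a point for each of the 2 libraries of HuH-28, RBE and SSP-25. STC2, CEBPB and PPP1R15A are lowest in RBE, while PHGDH, PSAT1 and ASNS are highest in RBE.

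Other genes of these pathways were counted from lists drawn up from general knowledge, beside 27.3% of all genes higher, 25.1% lower and 28.2% with an effect that differed between lines. On the average over the lines, 9 of 14 other ER folding genes rose and 2 fell, 8 of 16 other genes of ER-associated degradation and translocation rose and 3 fell, and both proteases that cut ATF6 (MBTPS1 and MBTPS2) rose. Of 11 other tRNA synthetases 1 rose and 5 fell, and of 11 genes of the eIF2 kinases, phosphatase and exchange factor 2 rose and 4 fell. Of 18 other ATF4 targets 10 rose and 5 fell, and the effect differed between lines for 15 of the 18. The shares lower among these targets (27.8%) and higher among the eIF2 genes (18.2%) were near or below those of all genes. The share higher among these targets (55.6%) was above that of all genes. They thus went the other way from the ATF4 arm, of which 24% rose and 44% fell on this average.

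The 3′ UTRs of the members that fell are shown for a 7-base word, GAAGGAA, that came from an earlier look at which words were frequent in genes lower in these same libraries, so that no test was made of it. In the longest 3′ UTR of each gene in GENCODE v29, 8 of 44 members (18.2%) held the word, against 20.7% of 14924 tested genes. Of the 8, which were CEBPG, EIF2AK3, GARS, ATF6, XBP1, DNAJC3, CANX and SEL1L, 7 fell on the average over the lines and 0 rose (all 8 lay below 0), against 10 lower and 16 higher of the 36 members without it. Over all genes 32.8% of those with the word and 23.3% of those without it were lower. Genes with the word had longer 3′ UTRs (median of 2637 bases against 743 among members), and no source used here gives the sequence of the LKB1 siRNA. The part of the word, or of UTR length, in these values was not tested. SEL1L held the word 3 times in a 3′ UTR of 5423 bases and DNAJC3 held it at 2 places in 3959 bases, and these were the members that fell most. ATF6 held it at 1 place in 5416 bases and stood at -0.26 on the average over the lines. The sites of SEL1L and DNAJC3, and that of XBP1, which also fell in each line, are shown with the word in capitals (coordinates of GRCh38, strand of the gene).
SEL1L, chr14:81476920-81476949, minus strand: tcagtgacagcGAAGGAAgttatctgctgg
SEL1L, chr14:81475049-81475078, minus strand: cacttcctttaGAAGGAActgttataattt
SEL1L, chr14:81473078-81473107, minus strand: gctggcattgtGAAGGAAcaccatggtaga
DNAJC3, chr13:95792339-95792368, plus strand: atttgaaagctGAAGGAAttactttagata
DNAJC3, chr13:95794473-95794502, plus strand: aatttataaagGAAGGAAgaaggcaaatgt
XBP1, chr22:28795385-28795414, minus strand: attgtctcagtGAAGGAAgaacctgtagaa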

How the data were processed

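Total RNA of 12 libraries of ICC lines was sequenced as 40-base single reads. The values the authors deposited are a signal, reads per kilobase that they normalized on a scale that is not stated. The study's methods name NextGENe, an NCBI human build and RefSeq mRNA, and TopHat 1.2.0, edgeR, hg19 and GRCh37 stand in the submitters' processing notes. The sources used here do not say which pipeline gave the table. The read depth is unknown, so no counting intervals are given.

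Values under 1e-06 were set to 0. Of 18815 rows, 28 hold a date in place of a symbol and 23 repeat a symbol with its values, and these were left out. No column was left unmapped. Levels were analysed as log2(signal + 0.5) with limma 3.58.1 in R 4.3.3, fitting 6 group means (6 residual degrees of freedom) with a mean-variance trend. P-values were adjusted by Benjamini-Hochberg over the 16120 genes that reached a signal of 1 in 2 or more libraries. Fold changes on this scale understate those of low genes. The scripts were tested on simulated data. Promoters and 3′ UTRs were searched in Python 3.11.15.

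Values in every library are given for the main sensors, factors and targets, for members that passed in the same direction in all 3 lines, and for the 6 members each with the smallest p for the difference between lines and the widest range of control levels. The members and lists were chosen with earlier results of these data known. Alternatives were the pseudocount, filter, scaling, trend, threshold, samples fitted, replicate block, and leaving out each line or library.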

Additional observations from a re-analysis of the deposited data

Results flagged for a closer look

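The siRNA effect differed between HuH-28, RBE and SSP-25 for 25 of the 44 members in the limma F test. In the ATF4 arm the adjusted p was 0.000307 for ASNS, 0.000332 for PSAT1, 0.000651 for PHGDH, 0.000693 for STC2, 0.00122 for ATF3, 0.0023 for YARS, 0.00247 for PSPH, 0.00549 for TRIB3, 0.00752 for ATF5 and 0.0096 for GARS. It was 0.0189 for PPP1R15A, 0.0233 for MARS, 0.0276 for CARS, 0.0291 for EIF2AK3, 0.0496 for DDIT3 and 0.0498 for ATF4. In the ER arm it was 0.00386 for SEL1L, 0.00397 for XBP1, 0.00447 for EDEM1, 0.011 for HSPA5, 0.0113 for HERPUD1, 0.0146 for PDIA4, 0.0173 for DNAJB11, 0.0317 for ERN1 and 0.0388 for ATF6. SEL1L, XBP1, TRIB3 and DNAJB11 passed in the same direction in each line and differed in size. STC2, YARS, GARS, PPP1R15A, EIF2AK3, DDIT3, EDEM1, PDIA4, ERN1 and ATF6 also kept the same sign in each line, without passing in every line. Of these 25 differences, 10 were lost in 1 or more of the fits that left out a single library. Besides ATF4, DDIT3, PPP1R15A and DNAJB11, whose values stand with those genes, these were ATF6 (without the first control siRNA library of HuH-28, any one of RBE, either LKB1 siRNA library or the second control siRNA library of SSP-25, adjusted p from 0.0579 to 0.142), ERN1 (any one of RBE, either LKB1 siRNA library or the first control siRNA library of SSP-25, 0.0615 to 0.0994) and EIF2AK3 (either LKB1 siRNA library or the second control siRNA library of RBE, or any one of SSP-25, 0.0529 to 0.0955). MARS was lost without the first control siRNA library of HuH-28, the first LKB1 siRNA or either control siRNA library of RBE, or the second LKB1 siRNA library of SSP-25 (0.0527 to 0.0664). CARS was lost without any one library of HuH-28, either LKB1 siRNA or the second control siRNA library of RBE, or either LKB1 siRNA library of SSP-25 (0.0526 to 0.0687). HERPUD1 was lost without the second LKB1 siRNA library (0.054) or the first control siRNA library (0.0513) of SSP-25.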

How the results depend on the processing

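Counts of members that passed moved by over 1.5 times in these settings. At an adjusted p under 0.01, 8 members passed in HuH-28, 17 in SSP-25 and 13 for the difference between lines, against 14, 27 and 25. With only the 2 groups compared in the fit, 6 passed in HuH-28. Library numbers mark a first and a second test in the study, but whether libraries of a test were handled together is not stated, and deviations of same-numbered libraries correlated at 0.432 in HuH-28 but at 0.00227 in RBE and 0.0325 in SSP-25. By these correlations pairing was seen for HuH-28 only. The number of genes above 0 also went with the library number in HuH-28, with 17708 in both first libraries and 15753 and 15789 in the second. In RBE it was 15482 and 15365 in the first libraries and 17708 in both second ones. In SSP-25 it was 17708 in all but the second LKB1 siRNA library (15725). The sources do not explain this split, and its part in the values was not tested. A replicate block within line gave 27 members in HuH-28, and a block shared by all groups gave 14. Leaving out single libraries gave 15 to 30 members for the difference between lines, with 15 without the second LKB1 siRNA library of SSP-25. The gap between the arm medians was -0.197 in RBE and -0.303 in SSP-25 after quantile normalization, and on the average over the lines -0.357 without HuH-28 and -0.111 without SSP-25. Without single libraries it was -0.042 to 0.0655 in HuH-28 (0.0155, 0.0509, 0.0655 and 0.0248 without each of its own), -0.294 to -0.183 in RBE and -0.415 to -0.339 in SSP-25. Of single members, ATF4 in RBE minus SSP-25 turned to 0.211 after quantile normalization. Averages over the lines turned to -0.0924 for PSPH without HuH-28, -0.221 for ATF3 and 0.0974 for ASNS without RBE, and -0.192 for PSAT1 without SSP-25. Among calls within or between lines after LKB1 siRNA, the rise of CALR on the average (lost in 16 of 27 alternatives), the fall of ATF3 in SSP-25 (14 of 24) and the differences between lines of DDIT3 (14 of 23), ATF4, ATF6 and CARS (12 of 23 each) were lost most often. Of the calls at baseline, those of PDIA6 (lost in 15 of 23 alternatives) and DDIT3 (12 of 23) in HuH-28 minus RBE were lost most often. The read depth is unknown.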
